A study of Caenorhabditis elegans with 2 samples.

Results

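Binding of SMA-9 was examined at 5 genes of the dafachronic acid hormone system, daf-9, daf-36 and hsd-1 for synthesis, daf-12 for the receptor and din-1 for its corepressor. They were chosen by name for their place in that system, from the 19973 protein-coding genes of the nuclear chromosomes. Earlier results of these data were known when the choice was made. A gene was counted as having a peak where a reproducible peak had its summit inside it or no more than 3000 bp away. By that rule 3 of the 5 genes had peaks, with 14 summits in all: din-1 had 8, daf-12 had 3, daf-9 had 3, and daf-36 and hsd-1 had 0. Over all protein-coding genes the share with a summit by the same rule was 39.8%, so 3 of 5 is no more than a description of these genes.

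Binding was measured by ChIP-seq, in which DNA bound by a protein is pulled down with an antibody and sequenced. SMA-9 is a Schnurri-type transcription factor with zinc fingers and works with the Smads of the DBL-1 (BMP-like) pathway. There was 1 group with 2 biological replicates and no treatment: whole hermaphrodite Caenorhabditis elegans larvae of strain LW1254 in the L2 stage, collected 22 hours after being synchronized as starved L1 larvae. All animals carried the integrated transgene jjIs1254, with sma-9C2::gfp and unc-119(+), in an unc-119(ed4) background, and GFP was the target of the antibody. A note in the labels describes the tag as GFP-FLAG at the C terminus. What was pulled down was therefore the tagged protein of 1 transgene line.

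Dafachronic acids are steroid hormones that larvae make from dietary sterols. The Rieske-type oxygenase DAF-36 acts at the start of the route, the hydroxysteroid dehydrogenase HSD-1 is one of the enzymes between, and the cytochrome P450 DAF-9 makes the active hormone. The hormone binds DAF-12, a nuclear receptor related to the vitamin D receptor, which then promotes growth to the adult. Without hormone, DAF-12 works with the corepressor DIN-1 and favours dauer, the arrested larval form entered in poor conditions. The same receptor sets the timing of larval cell fates and is needed for the long life of animals without a germ line.

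The reproducible list, which the authors selected by the irreproducible discovery rate (IDR), a measure of how well peak ranks match between replicates, had 7065 peaks. Their signal, the peak caller's own value, had a median of 109 and ran between 61.96 and 2844. The pooled list and the replicate 1 list held 30000 calls each, down to background level. The replicate 2 list held 29983 nuclear and 17 mitochondrial calls. Signals of different lists are not on a common scale, so replicates are compared by rank, with 1 as the strongest. The lists hold no read counts, the depth is unknown, and the control experiment was not analysed here. Larvae were used whole, so the cells in which SMA-9 was bound, and whether a weak peak came from few cells or from little binding per cell, cannot be told apart.

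The 6 windows printed here carry the results: the 4 strongest din-1 peaks outside an annotated UTR, and the strongest peak of daf-12 and of daf-9. Each is the plus strand of ce11 (WBcel235), 5′ to 3′, as 101 bp centred on the summit, with the internal din-1 window shortened to stop before an annotated UTR. Capitals mark any letters searched for, on either strand, as listed after the windows.
din-1 upstream, outermost, chrII:11635900-11636000: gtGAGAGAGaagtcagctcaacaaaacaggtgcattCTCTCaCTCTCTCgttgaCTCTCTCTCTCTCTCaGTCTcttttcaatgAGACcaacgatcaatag
din-1 upstream, middle, chrII:11635119-11635219: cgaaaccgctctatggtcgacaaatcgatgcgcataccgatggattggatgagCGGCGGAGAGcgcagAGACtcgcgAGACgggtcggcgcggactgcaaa
din-1 upstream, innermost, chrII:11634289-11634389: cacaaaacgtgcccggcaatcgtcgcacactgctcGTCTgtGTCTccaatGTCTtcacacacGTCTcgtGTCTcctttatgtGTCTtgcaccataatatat
din-1 internal, chrII:11620079-11620163: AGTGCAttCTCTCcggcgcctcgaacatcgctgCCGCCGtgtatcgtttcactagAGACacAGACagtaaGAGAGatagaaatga
daf-12 intron, chrX:10637586-10637686: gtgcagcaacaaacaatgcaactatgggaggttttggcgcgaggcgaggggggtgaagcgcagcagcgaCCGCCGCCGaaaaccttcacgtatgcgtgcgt
daf-9 downstream, chrX:6201658-6201758: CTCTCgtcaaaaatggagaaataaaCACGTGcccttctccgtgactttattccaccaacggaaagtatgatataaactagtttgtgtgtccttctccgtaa

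The letters searched for were GTCT, a Smad-binding element, with the palindrome GTCTAGAC made of a pair of them. AGTTCA and likewise AGTGCA are single elements bound by DAF-12. GATAA is bound by GATA factors and GTAAACA by DAF-16, a forkhead factor. The motif GAGAG, the motif CCGCCG and the motif CACGTG were added after the windows had been seen. GTCT was in 9 of the 14 windows, against 59.4% of all 7065 windows of the same length. It was in 7 of the 8 din-1 windows, in 1 of 3 at daf-12 and in 1 of 3 at daf-9. The window 730 bp before the din-1 5′ end held 6 matches, a number reached by 9 of the 7065 windows (0.127%). The outermost din-1 window held 11 overlapping matches of GAGAG, a number reached by 23 windows (0.326%). Each was the highest count of its motif among the 14 windows and was picked for that. These shares therefore do not tell how unusual the 14 windows are.

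AGTGCA was in 3 of the 14 windows, against 6.06% of all, and all 3 lay inside din-1, within 836 bp of the 5′ ends of its short transcripts. AGTTCA was in 0 of 14, against 5.39%, and GTCTAGAC in 0 of 14, against 0.113%. GATAA was in 3 of 14, against 33.0%, and GTAAACA in 1 of 14, against 2.32%. Of the motifs added later, GAGAG was in 6 of 14 windows, against 40.2%, CCGCCG in 3 of 14, against 4.66%, and CACGTG in 1 of 14, against 7.36%. The later motifs were picked from these same windows, so their counts do not tell how unusual the windows are. All counts here are matches of letters only, and a match is not a site of any factor.

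din-1, the corepressor gene, had the most and the strongest peaks. It spans 18840 bp on the minus strand (II 11614770 to 11633609), with 7 annotated transcripts and 6 distinct 5′ ends. Its 8 summits were matched or exceeded by 0.185% of protein-coding genes, 37 in number with din-1 included. Long genes collect more summits, and among the 998 genes of 10 kb or more the share with at least 8 was 2.71%. Per length the gene stood less apart: 0.322 summits per kb of gene and flanks, against 0.0705 per kb over the genome, with 760 genes denser. By its strongest peak it ranked 220 among all protein-coding genes.

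The 8 peaks fell into clusters of 4 at each end of the gene. The first cluster covered 3032 bp around the 5′ ends of the long transcripts F07A11.6a, F07A11.6b and F07A11.6c, which encode proteins of 2211 to 2407 residues. The second covered 3573 bp around the 5′ ends of the short transcripts F07A11.6d and F07A11.6g, which encode 567 and 186 residues. The clusters were 12805 bp apart. That stretch, in which the long transcripts F07A11.6e and F07A11.6f start, had no reproducible summit and 6 calls of the pooled list, of signal 17.8 to 57.03. The 5′ end of F07A11.6e was near its edge, 645 bp past the last summit of the first cluster. din-1 is known to make long and short proteins, of which the short one, DIN-1S, is the partner of DAF-12. The annotation used here does not say which transcript makes it.

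**Figure D1:**
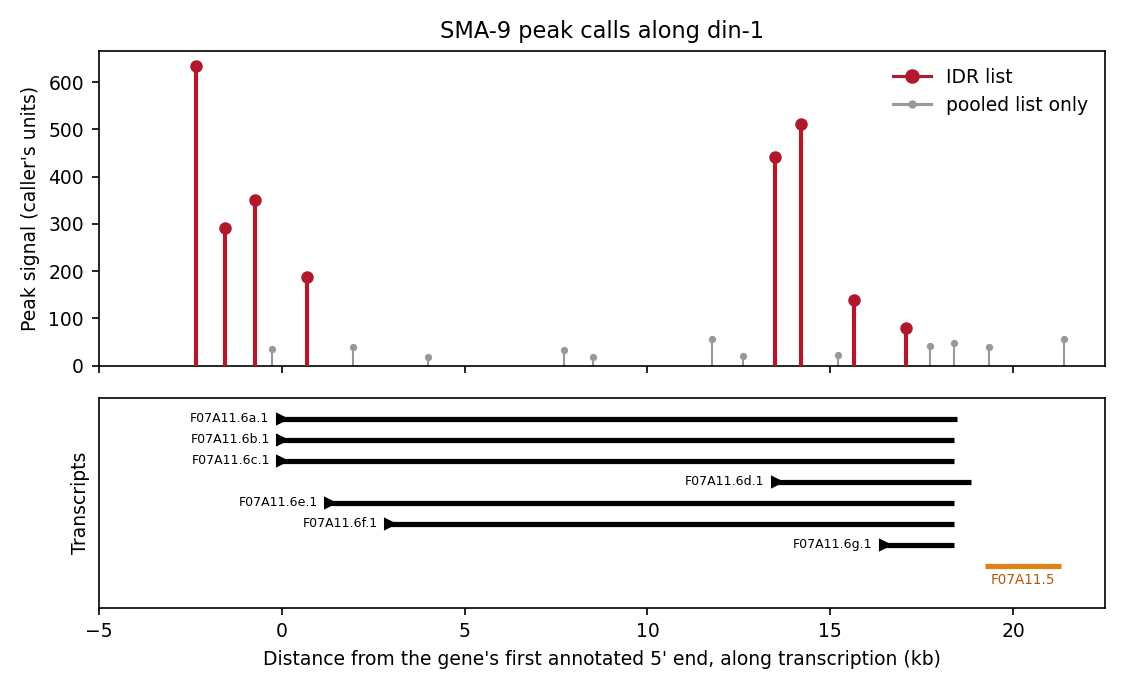
Signal of SMA-9 peak calls (vertical axis, pooled signal in the caller's units) by distance from the first annotated 5′ end of din-1, in kb along transcription, with the annotated transcripts and the neighbouring gene F07A11.5 drawn to scale underneath. Red stems are the 8 peaks of the IDR list and grey stems are calls of the pooled list only. The red stems stand in clusters of 4, around the 5′ ends of F07A11.6a to F07A11.6c and of the short transcripts. Between the clusters are the 5′ ends of F07A11.6e, 645 bp past the nearest red stem, and of F07A11.6f.

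The strongest din-1 peak (II 11635777 to 11636095) lay 2341 bp upstream of the gene. Its pooled signal was 634.6, rank 135 of the 7065. In replicate 1 it had a signal of 358.1 and rank 141, and in replicate 2 a signal of 296.8 and rank 123. Both replicates thus placed it among their first 141 peaks.

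A pair of further peaks lay between it and the gene, beside small non-coding RNA genes. The peak at II 11635073 to 11635271 had a pooled signal of 291.4, rank 715, with ranks of 849 and 627 in replicates 1 and 2. Its summit was 56 bp upstream of the snoRNA gene ZK20.9. The peak at II 11634226 to 11634433 had a signal of 350.0, rank 488, with ranks of 457 and 485. Its summit was 730 bp upstream of din-1 and 5 bp upstream of the 5′ end of the non-coding RNA gene ZK20.8. The nearest other protein-coding 5′ end, that of ghi-1, was 10797 bp or more from all 3 upstream summits. The fourth peak of this cluster, at II 11632783 to 11633052, was in the first kilobase of the gene, in an intron, with a signal of 188.6 and replicate ranks of 1510 and 1872. Its summit was 691 bp past the first 5′ end of din-1 and 645 bp upstream of the 5′ end of F07A11.6e.

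At the short transcripts the 2 leading peaks stood on either side of the 5′ end of F07A11.6d. One (II 11619955 to 11620355) had its summit 35 bp upstream of that end, in an intron of the long transcripts. Its pooled signal was 440.5, rank 305, with a signal of 282.6 and rank 238 in replicate 1 and a signal of 163.2 and rank 460 in replicate 2. The summit also lay inside the snoRNA gene F07A11.15 and the non-coding RNA gene F07A11.10, both on the other strand. The other (II 11619285 to 11619581) had its summit 658 bp past the 5′ end, in the 932 bp 5′ UTR of that transcript. Its signal was 512.2, rank 215, with ranks of 224 and 221. The remaining 2 peaks of the cluster had signals of 80.69 and 139.3. The weaker of them, picked out after its values were seen, ranked 3520 in replicate 1 and 9090 in replicate 2, the widest gap in ranks among the 8. In replicate 2 its summit lay in 2 overlapping calls, of ranks 9090 and 13177, and the stronger is the one given.

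daf-12, the receptor gene, had 1 strong peak and 2 weak ones. It is the longest of the 5 genes at 30968 bp (X 10635908 to 10666875, plus strand), with 10 transcripts and 9 distinct 5′ ends. At least 3 summits were found at 5.89% of all protein-coding genes and at 17.6% of genes of 10 kb or more, where 53.5% had any and the mean was 1.4. Its density of 0.0812 summits per kb was near the 0.0705 per kb of the genome. By its strongest peak it ranked 1106 among all protein-coding genes.

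The strong peak (X 10637502 to 10637755) was in an intron of the longest transcript, F11A1.3e.3, 1728 bp past its 5′ end. Its pooled signal was 301.9, rank 666 of 7065. Replicate 1 gave it a signal of 159.6 and rank 798, and replicate 2 a signal of 154.1 and rank 530. The window at this summit was 60.4% G and C, against a median of 43.6% over all windows, and 98.0% of windows had less. No other protein-coding gene had its 5′ end nearer than 8829 bp.

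The other peaks of daf-12 stood close to the lower limit of the list. The peak at X 10667988 to 10668257 had a signal of 75.54, with ranks of 6684 and 4491 in replicates 1 and 2. It lay 1248 bp past the 3′ end of daf-12 and 39 bp past the 3′ end of the convergent gene F13E6.2. The peak at X 10647827 to 10648096 had a signal of 70.27, with ranks of 5626 and 8099. Its summit was in an intron, 905 bp past the 5′ end of transcript F11A1.3e.4. Replicate 2 had another call overlapping this peak, at rank 6748, which did not reach the summit. Over the 20161 bp between these 2 summits, where the 5′ ends of 5 further transcripts lie, there was no reproducible summit and there were 13 pooled calls of signal 17.96 to 60.74.

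**Figure D2:**
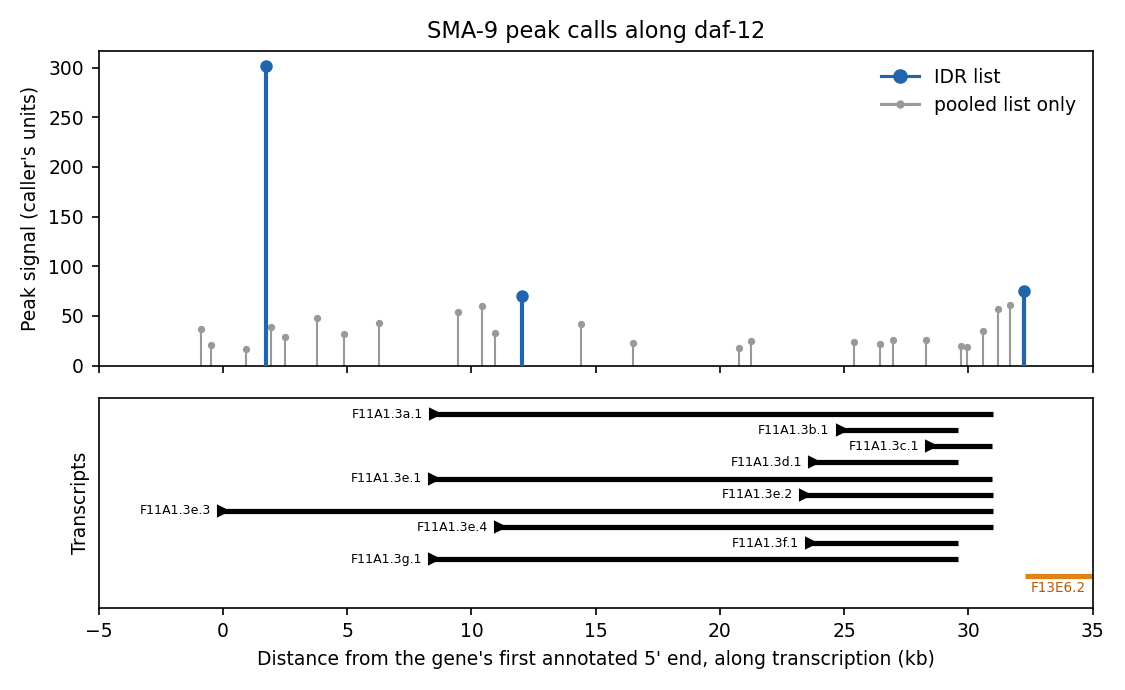
Signal of SMA-9 peak calls (vertical axis, pooled signal in the caller's units) by distance from the first annotated 5′ end of daf-12, in kb along transcription, with its transcripts and the neighbouring gene F13E6.2 drawn to scale underneath. Blue stems are the 3 peaks of the IDR list and grey stems are calls of the pooled list only; 1 blue stem reaches 301.9, and the other 2 stand at 75.54 and 70.27, just above the grey ones.

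daf-12, the longest of the 5 genes, also had calls under the limit, and no share over all genes is given for such calls. Of its 27 pooled calls 24 were not in the reproducible list, with signals of 16.66 to 60.74, and 9 of the 24 lay in a call of each replicate. The nearest to the limit had signals of 60.74, at the 5′ end of a tRNA gene 31686 bp from the daf-12 5′ end, and 60.2, in an intron. The weakest peak of the whole reproducible list had a signal of 61.96, and the weakest at any of the 5 genes, at daf-9, had 63.72. With the 7065 strongest calls of replicate 2 alone daf-12 had 6 summits, and with those of replicate 1 alone 4, against 3 in the list from both.

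daf-9, the P450 gene, had 3 peaks in its flanks and none in the gene. It spans 3897 bp (X 6196927 to 6200823, plus strand) with 3 transcripts. None of the summits lay within 1000 bp of a daf-9 5′ end, and each was nearer to a 5′ end of another protein-coding gene than to one of its own. Its strongest peak put it at rank 3597 among all protein-coding genes. With the 3′ flank left out daf-9 had 1 summit, and 30.1% of all protein-coding genes had at least 1 by that rule.

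The strongest of the 3 (X 6201651 to 6201719) lay 885 bp past the 3′ end of daf-9 and 167 bp past that of the convergent gene bca-1, which encodes a carbonic anhydrase. At 69 bp it was the narrowest of the 14. Its pooled signal was 144.0, rank 2356, with a signal of 66.25 and rank 3224 in replicate 1 and a signal of 75.67 and rank 1953 in replicate 2. The peak at X 6203393 to 6203662 had a signal of 75.59, with ranks of 5403 and 8662. Its summit was in a coding exon of bca-1, 1218 bp from the 5′ end of that gene. The peak at X 6194422 to 6194691 had a signal of 63.72, with ranks of 7341 and 8613. It lay 2370 bp upstream of daf-9 and 316 bp upstream of the homeobox gene ceh-54, which runs the other way. Whether any of these peaks acts on daf-9 or on its neighbours was not tested.

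At the daf-9 5′ end itself the pooled list had a call 3 bp upstream, with a signal of 34.72 and rank 13051 of 30000. Replicate 1 had a call there at rank 12226 and replicate 2 at rank 22354. This was 1 of 4 pooled calls of daf-9 under the limit, with signals of 26.35 to 41.4, and all 4 lay in a call of each replicate. For these calls too no share over all genes is given.

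daf-36 and hsd-1, for the Rieske oxygenase and the hydroxysteroid dehydrogenase, had no peak in the reproducible list and no call in the pooled list. daf-36 spans 2198 bp (V 10223513 to 10225710) and hsd-1 4329 bp (I 13720125 to 13724453), both on the minus strand. Of the 16740 genes under 5 kb, 31.9% likewise had no pooled call and 38.1% had a reproducible summit, so lacking both is common for genes of this size. The replicate lists had a few calls. At daf-36 replicate 1 had 1 call, of signal 11.09 and rank 27235, and replicate 2 had 3, of which the strongest had 12.05 and rank 19945. At hsd-1 replicate 1 had 0 calls and replicate 2 had 2, of which the stronger had 9.69 and rank 25256. Lists that keep a limited number of calls do not show that SMA-9 was absent there.

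**Figure D3:**
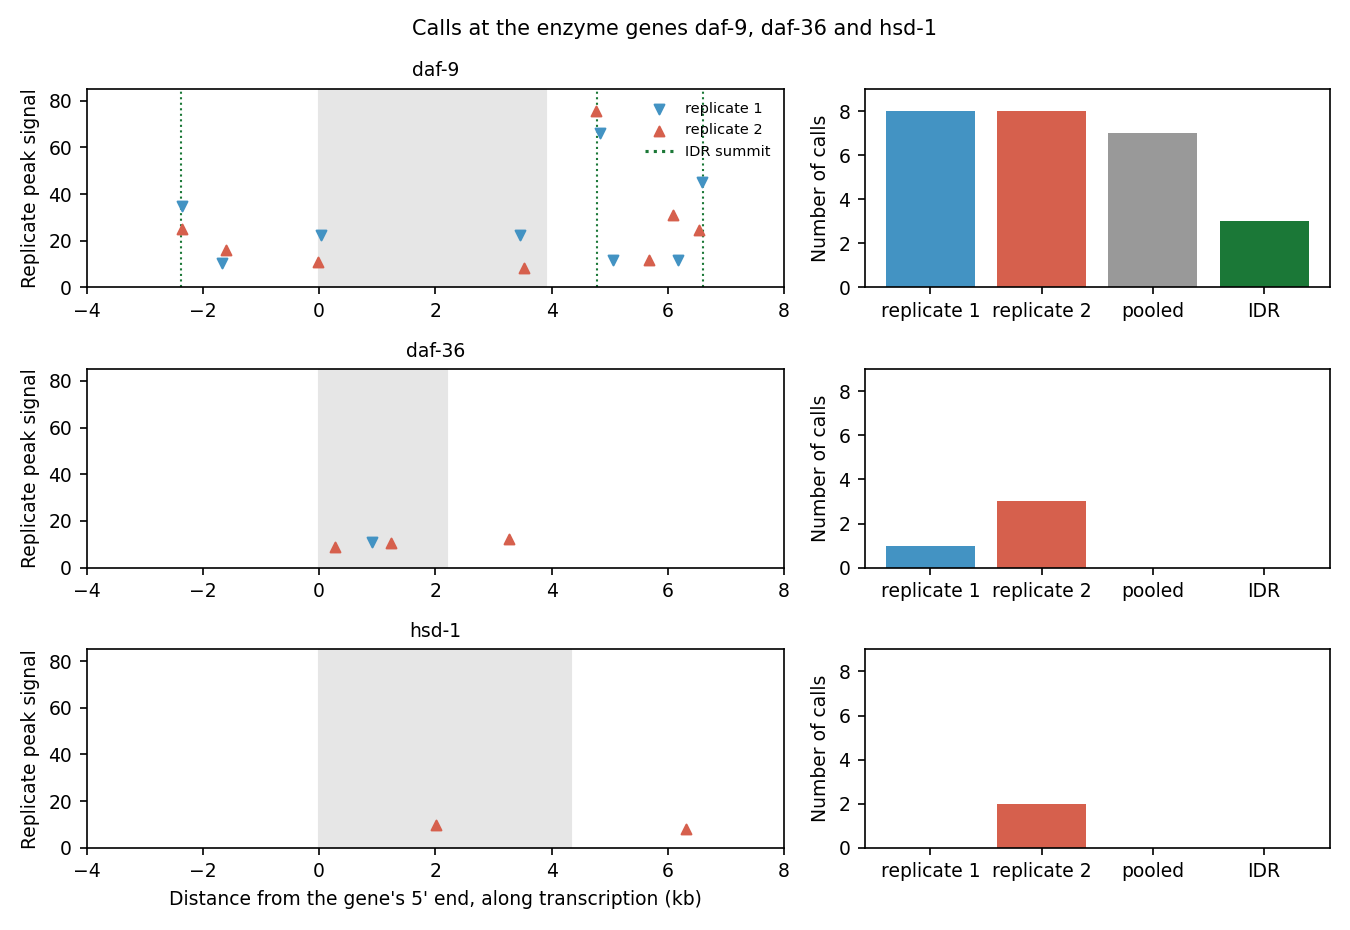
Calls at the 3 enzyme genes. Left, signal of replicate calls (vertical axis, each in its own list's units) by distance from the gene's 5′ end in kb along transcription, with the gene shaded and IDR summits as dotted lines; right, the number of calls in or within 3000 bp of the gene in each list. All 3 dotted lines of daf-9 stand outside the shaded gene, and daf-36 and hsd-1 have bars only for single replicates, of 1 to 3 calls.

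By their strongest peak the genes ran in the order of din-1, daf-12 and daf-9, while the other peaks of daf-12 and daf-9 overlapped in signal. The median signal was 320.7 over the 8 din-1 peaks, 75.54 over the 3 of daf-12 and 75.59 over the 3 of daf-9, against 109 over the whole list. Of the 14 peaks 9 were above the median of the list, 7 of them at din-1. The 2 weakest din-1 peaks, of 80.69 and 139.3, lay within the range of the daf-9 peaks, 63.72 to 144.0. A peak of the default width of 270 bp was found at 7 of 14, against 68.1% of the list.

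**Figure D4:**
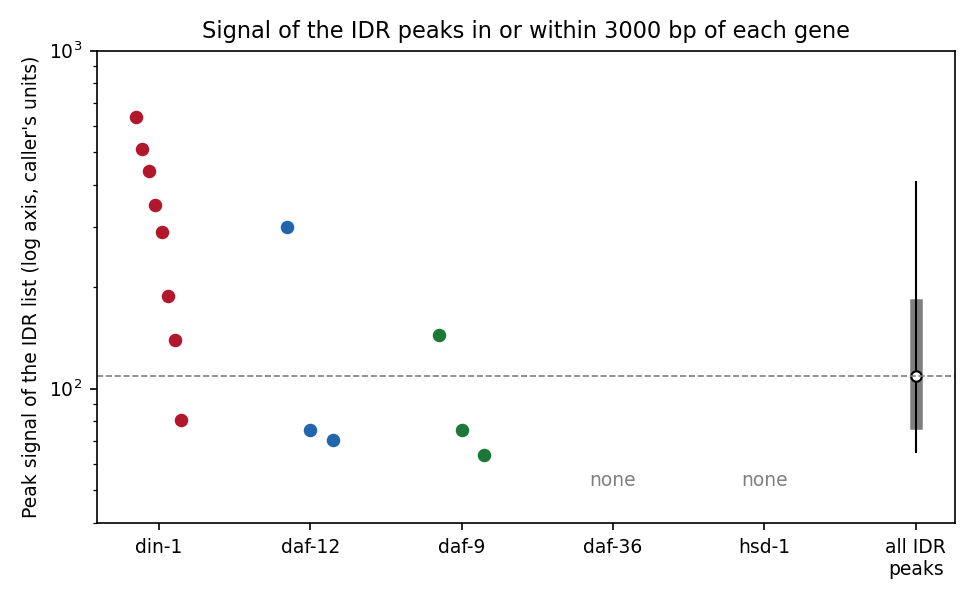
Signal of each IDR peak in or within 3000 bp of each gene, on a log axis in the caller's units, with all 7065 IDR peaks at the right (circle, median; thick bar, 25th to 75th percentile; thin line, 5th to 95th). Of the 8 din-1 points 7 are above the dashed line at the median of 109, against 1 of 3 for daf-12 and 1 of 3 for daf-9.

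The replicates held all 14 peaks. Each summit was inside a call of both replicates, against 95.2% of all reproducible summits. The list was selected for matching ranks between these same replicates, so this was largely set by the selection. Within the 7065 strongest calls of both replicates were 10 of the 14, against 71.8% of the list. The other 4 were 2 peaks of daf-9, the weakest of daf-12 and the weakest of din-1.

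**Figure D5:**
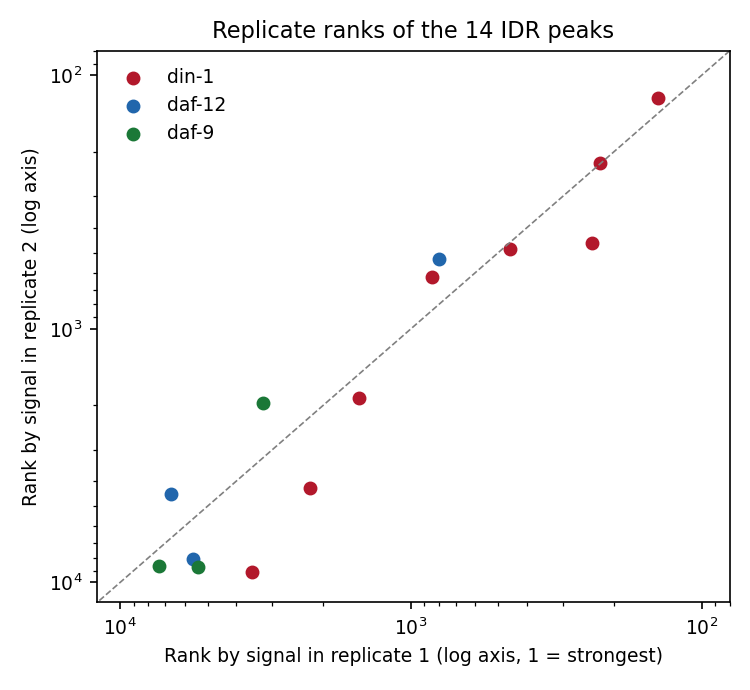
Rank of the 14 IDR peaks by signal in replicate 1 (horizontal) and replicate 2 (vertical), both on log axes with the strongest at the upper right; each point is 1 peak, coloured by gene, and the dashed line marks equal ranks. The 5 strongest din-1 peaks and the strongest of daf-12 rank within the first 849 in both replicates, and the point farthest from the line is the weakest din-1 peak.

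The position of a summit was also read against annotated 5′ ends. A summit within 1000 bp of one was found at 2 of the 5 genes, with 6 summits at din-1 and 1 at daf-12, against 20.2% of all protein-coding genes. All 5′ ends of a gene were searched, 6 at din-1 and 9 at daf-12, and genes were not matched for that number. The X chromosome, which carries daf-9 and daf-12, had a summit at 50.6% of its genes by the 3000 bp rule. daf-9 belongs to the cytochrome P450 genes, of which 64.9% of the 74 with a cyp symbol had a summit. daf-12 belongs to the nuclear receptor genes, of which 57.2% of the 269 with an nhr symbol had one.

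Around these 5 genes a list of 18 further genes of the system was read by the same rule. It holds sterol transporters, related enzymes, related receptors and genes known to act downstream of or with DAF-12. Of the 18 genes 12 had a summit: 8 of 14 protein-coding genes, against 39.8% of all, and 4 of 4 microRNA genes, against 42.1% of the 261 annotated. The share was 53.5% for protein-coding genes of 10 kb or more and 50.6% for those on X, and the list holds genes of both kinds. The list was chosen with earlier results of these data known, so the counts only describe it.

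Among receptors nhr-48, a close relative of daf-12, had 4 summits. Its strongest peak (X 15707380 to 15707839), 630 bp upstream, had a pooled signal of 683.7 and rank 113, above every peak of the 5 genes, with ranks of 151 and 87 in replicates 1 and 2. nhr-8, the other relative, which acts in sterol balance, had 2, the stronger of signal 132.8 in its 5′ UTR.

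The microRNAs of the let-7 family regulate the timing of larval fates, and mir-48, mir-84 and mir-241 are known targets of DAF-12. let-7 had 1 peak, of signal 349.1 and ranks of 478 and 580 in replicates 1 and 2, 1858 bp upstream of the annotated gene and 124 bp upstream of the protein-coding gene C05G5.2. mir-241 had 3, the strongest of 294.9 and ranks of 1073 and 501. mir-48 had 1, of 282.7 and ranks of 503 and 1515, which is also counted for the neighbouring mir-241. mir-84 had 2, the stronger of 254.9 and ranks of 967 and 868. hbl-1, a zinc-finger gene that these microRNAs repress, had 3, the strongest of 157.0 and 556 bp past its 3′ end, 1124 bp upstream of acp-5.

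Of the genes for sterol handling and synthesis, ncr-1, a homologue of the Niemann-Pick C sterol transporter, had 1 peak, of signal 271.3, which lay 2753 bp past its 3′ end and 275 bp upstream of asb-2. emb-8, the reductase that supplies electrons to cytochrome P450 enzymes, had 2, the stronger of 153.2 at 1846 bp upstream. let-767, a steroid dehydrogenase-like gene, had 1 of 65.11, 293 bp upstream of it and inside the neighbouring gene rpn-13. That peak ranked 5290 in replicate 1 and 11143 in replicate 2. The dehydrogenase genes dhs-16, hsd-2 and hsd-3, the sterol methyltransferase gene strm-1, ncr-2 and the lipoprotein receptor gene lrp-1 had no summit. Of genes known from the long life of germ line-less animals, kri-1 had 1 peak of 166.0, 2094 bp past its 3′ end and 139 bp from spe-12. tcer-1 had 1 of 63.83, 271 bp upstream of it and 330 bp upstream of ZK1127.5, with ranks of 12393 and 6446 in replicates 1 and 2. The let-767 and tcer-1 peaks were near the lowest signal of the list, 61.96. Whether the peaks beside other genes act on the listed genes was not tested.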

How the data were processed

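The sources hold peak lists of 2 replicates, their pool and the IDR list on ce11; the lists on ce10 were not used, since the annotation is of WBcel235 (ce11). Per the file headers, calls were made per replicate and on both pooled, and these 3 lists gave the IDR list. For the aligner, caller and IDR threshold the sources used here give nothing. Each peak has a signal, a score without a fixed range, and a −log10 q-value, both as the authors deposited them. The −log10 q-value is capped at 4.17 in the IDR list and all IDR peaks hold it, so signal gave the ranks. Signal was used only within a list. The 17 mitochondrial calls of replicate 2 were left out of ranks.

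Genes came from Ensembl release 115, and let-7 was matched by symbol and coordinates in RefSeq of the same build. Summits were counted in the gene or within 3000 bp with Python 3.11.15, numpy 2.4.6 and pandas 2.3.3, and the counting was tested on simulated data. Sequences are from the RefSeq genome of WBcel235. With 1 group there is no contrast and no p-value. Without read counts the depth per sample is unknown, and precision is limited by having 2 replicates. The 5 genes and the gene and motif lists were chosen with earlier results of these data known. All peaks of the 5 genes were to be named (of more than 6, the 6 strongest), with up to 8 further genes of the list, strongest first, and those with no summit by name; emb-8, nhr-8, let-767 and tcer-1 were named beyond that rule, after their values were seen. Alternatives were other flanks, 5′ ends only, overlap by 1 bp, the stronger 3532 peaks, single replicates and other motif windows.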

Additional observations from a re-analysis of the deposited data

How the results depend on the processing

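The number of the 5 genes with a summit was 3 under every alternative tried, except that it was 2 when summits had to lie within 1000 bp of a 5′ end. Of the 18 further genes 8 to 12 had a summit over all alternatives, with 8 at a flank of 1000 bp and 8 within 1000 bp of a 5′ end. Over all protein-coding genes the share also moved, to 26.8% at a flank of 1000 bp and 49.8% at 5000 bp. It was 30.1% without the 3′ flank, 20.2% within 1000 bp of a 5′ end and 40.6% for overlap by 1 bp. With the stronger 3532 peaks it was 25.2%, with replicate 1 alone 39.5% and with replicate 2 alone 40.2%. The counts therefore only describe these genes. Under the single-replicate lists the ranges, lowest to highest, were 3 to 3 of the 5 genes, 11 to 12 of the 18 further genes, 8 to 9 summits at din-1, 4 to 6 at daf-12 and 2 to 2 at daf-9. The strongest peak ranked 123 to 141 for din-1, 530 to 798 for daf-12 and 1953 to 3224 for daf-9. The 3 summits of daf-9 became 1 with a flank of 1000 bp, 1 with the 3′ flank left out, 1 with the stronger 3532 peaks alone, and 0 within 1000 bp of a 5′ end. The 3 of daf-12 became 1 within 1000 bp of a 5′ end and 1 with the stronger 3532 peaks. In windows of 25 bp on either side of the summit, AGTGCA was in 1 of the 14, against 3.28% of all windows. GATAA was in 0, against 18.1%, and GTAAACA in 0, against 1.03%. With 100 bp on either side AGTTCA was in 1 of the 14, against 11.7%. A shorter or longer window holds fewer or more letters. No paired analysis was possible because the study has 1 group. Peak lists give no depth, so a gene without a call was outside the calls that the lists kept and no more can be said of it.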

Other observations

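The base composition of the 14 windows spread widely. At din-1 the window of the middle upstream peak was 60.4% G and C, the same as at the strongest daf-12 peak, while the window of its weakest peak was 29.7%, with 0.637% of all windows lower. The daf-9 windows held 34.7%, 40.6% and 41.6%, all under the median of 43.6% over all windows. CCGCCG was in the windows of both peaks of 60.4% and in the internal din-1 window of 51.5%. The motif is itself made of G and C only and was added after the windows were seen, so its place in such windows is no separate result.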
